A study of Arabidopsis thaliana with 29 samples.

Results

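Heat shock proteins and heat shock factors were described here in leaves of Arabidopsis sprayed with abscisic acid (ABA) or with synthetic agonists of its receptors. The set was a list of 39 genes given by locus identifier: small heat shock proteins, HSP70, HSP90, HSP101, the immunophilins ROF1 and ROF2, and heat shock factors (HSFs). Of these, 38 had a row in the expression table of 33559 genes, and 1 class B factor was not analysed here. At least 1 FPKM (fragments per kilobase of transcript, scaled to the mapped fragments of the library) in at least 2 libraries was reached by 33 members, of 18521 such genes in all. The plants were 3-week-old Col-0 (wild type) grown in soil, and each group received a 10 μM spray of AMF4, AMF1β (written AMF1 in the sample labels) or ABA, or DMSO, the solvent, as the control. AMF1β and AMF4 are fluorinated derivatives of the synthetic agonist AM1, and AMF4 carries more fluorine atoms on the benzyl ring than AMF1β. At 6 h each of the 4 treatments had 3 libraries, at 24 h AMF4 had 2 and the other treatments 3 each, and at 72 h AMF4 and AMF1β had 2 each and ABA and DMSO 1 each, 29 libraries in 12 groups. The study's methods call the replicates biological, but no label says which libraries came from separate pots or harvests, so the p-values below measure the spread between libraries, part of which may be technical.

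HSFs are transcription factors that bind heat shock elements, alternating GAA and TTC units, in the promoters of chaperone genes. Class A factors activate transcription: the HSFA1 group starts the response to heat and HSFA2 is one of its strongly induced targets. Class B factors lack the activation domain of class A and can repress. Small heat shock proteins hold unfolding proteins in a soluble state, HSP70 and HSP90 refold and mature client proteins, and HSP101 pulls proteins out of aggregates. ROF1 and ROF2 are peptidyl-prolyl isomerases. Several members are made in unstressed leaves, where their levels follow the time of day, and others are nearly silent until stress.

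The libraries resembled leaf: the 5 mesophyll markers summed to at least 20703 FPKM in each, the 3 root markers and the 3 seed markers to at most 0.964 and 1.87 FPKM, and the 4 flower markers to at most 1.43 FPKM. No files were duplicates. The first AMF4 library of 6 h stood apart, with 21835 genes at 1 FPKM or more, against 16265 to 16872 genes in the other 28 libraries, and with the lowest relative depth, 0.451. The marker genes HAI1, RD29B and RAB18, all 3 known ABA targets, were called higher with each compound at 6 h. Of the 5 leaf markers, LHCB1.3 was called lower at 24 h with AMF4 (log2 difference -1.25, limma adjusted p = 0.0496) and AMF1β (-1.27, 0.041), and RBCS1A (-1.05, 0.0371) and LHCB1.1 (-1.19, 0.0147) at 6 h with AMF4; their part in the results below was not tested. In whole leaves a lower value from fewer cells of a type and one from less RNA per cell cannot be told apart.

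Promoters of 5 members are shown because they differ in what they hold: HSP17.4 and HSFA7A have heat shock elements of 3 units, while HSP17.6B, HSP70-4 and HSFA6A have none in the window. All of them except HSFA7A were called higher with AMF4 at 24 h (below). The 5 were picked and do not stand for the set. Of all members called higher there, only HSP17.4 held a 3-unit element, while HSP17.6C, HSFA2 and HSFA7A held it without such a call. Whether the element goes with a call was not tested. Each is the 250 bases before the gene start in the RefSeq annotation of TAIR10.1, written 5′ to 3′ on the gene's strand. The expression table carries no coordinates and was made on TAIR10, so genes were matched by locus identifier, 38 of 38. Capitals mark the heat shock element core (GAANNTTC or TTCNNGAA, each its own reverse complement) and the ABA response element core (ACGTG, or CACGT on the other strand).
HSP17.4, chr3:16984868-16985117, minus strand: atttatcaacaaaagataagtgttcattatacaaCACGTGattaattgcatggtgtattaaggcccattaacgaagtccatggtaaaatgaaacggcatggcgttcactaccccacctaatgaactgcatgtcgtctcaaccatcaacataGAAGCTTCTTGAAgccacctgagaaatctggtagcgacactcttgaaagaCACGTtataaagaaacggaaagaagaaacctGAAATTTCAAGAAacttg
HSFA7A, chr3:19264891-19265140, plus strand: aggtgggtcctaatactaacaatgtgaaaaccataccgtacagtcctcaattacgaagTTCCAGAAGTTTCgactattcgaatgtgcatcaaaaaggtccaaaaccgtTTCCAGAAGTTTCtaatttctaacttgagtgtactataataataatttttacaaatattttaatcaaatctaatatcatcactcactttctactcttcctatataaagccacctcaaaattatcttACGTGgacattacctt
HSP17.6B, chr2:12634121-12634370, minus strand: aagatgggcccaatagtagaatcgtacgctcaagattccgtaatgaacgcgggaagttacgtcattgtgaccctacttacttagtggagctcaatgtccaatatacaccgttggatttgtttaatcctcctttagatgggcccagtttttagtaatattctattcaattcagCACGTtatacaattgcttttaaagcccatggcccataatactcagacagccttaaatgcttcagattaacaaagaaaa
HSP70-4, chr3:3993887-3994136, minus strand: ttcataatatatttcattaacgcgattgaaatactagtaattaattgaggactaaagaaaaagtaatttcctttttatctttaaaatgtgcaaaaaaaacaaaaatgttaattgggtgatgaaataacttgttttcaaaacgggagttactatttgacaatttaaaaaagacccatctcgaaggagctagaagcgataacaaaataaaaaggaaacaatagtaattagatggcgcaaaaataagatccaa
HSFA6A, chr5:17626488-17626737, minus strand: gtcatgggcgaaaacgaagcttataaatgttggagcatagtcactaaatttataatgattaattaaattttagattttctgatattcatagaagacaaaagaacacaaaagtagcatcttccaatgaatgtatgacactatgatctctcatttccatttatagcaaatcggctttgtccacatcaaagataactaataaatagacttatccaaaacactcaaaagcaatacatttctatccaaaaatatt

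The 3-unit element (GAANNTTCNNGAA or TTCNNGAANNTTC) occurred in 5 of the 38 members' windows, 13.2%, against 106 of 27443 protein-coding promoters of the same length, 0.386%. HSP17.4 held it in 2 places, starting 99 and 18 bases before the gene start, and HSFA7A in 2 places, at 192 and 142 bases. HSP17.6C, HSFA2 and HSFA7B held it once each. The core pair of units, which lies inside every 3-unit element, was in 12 members, 31.6%, against 16.1% of all promoters. The ABRE core was in 12 members, 31.6%, against 22.9% of all. HSP17.4, HSP17.6C, HSFA1E, HSFA2, HSFA7A and HSFA7B held both a heat shock core and an ABRE core. These matches describe the letters in the window and were not tested for use. Bases outside the window were not searched, so a member without a match may hold the element elsewhere. Some windows overlap a neighbouring gene, among them those of HSP17.8, HSP18.2, HSP101 and HSP90.1. The annotated gene start may also differ from the start of transcription, so a window may hold transcribed bases of the gene itself.

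Levels spread widely. HSC70-1, a constitutive cytosolic HSP70, had the highest median over the 29 libraries, 1050 FPKM, followed by HSC70-3 with 340.2 FPKM, HSP90.3 with 206.2 FPKM and HSP90.2 with 182.9 FPKM. ROF1 had a median of 32.2 FPKM. The most abundant factors were HSFC1 at 21.8 FPKM and HSFA4A at 14.3 FPKM, and the HSFA1 activators were lower, HSFA1D at 4.51 FPKM, HSFA1A at 3.65 FPKM and HSFA1E at 1.34 FPKM. The small heat shock proteins had medians of at most 4.08 FPKM, the value of HSP17.6B. HSP21, HSP22.0, HSP26.5, HSFA7B and HSFA6B did not reach 1 FPKM in at least 2 libraries. The highest value of each of these 5 members was in the first AMF4 library of 6 h, between 0.753 and 2.02 FPKM.

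Near-identical stretches and overlapping genes limit some of these values. Of the 49-base words in its transcripts, HSP90.2 shared 18.3%, HSP90.3 24.3% and HSP90.4 19.2% with other genes, mostly with each other, so their separate levels are uncertain. HSFC1 shared 93.7% with AT3G24518, an antisense transcript that the table lists at up to 1.45 FPKM, and HSP17.4 shared 59.9% with the antisense transcript AT3G07365. Whether counting used the strand is not given in the sources used here, so reads of these genes and their antisense partners cannot be told apart. HSFB2B shared 13.7% with AT4G05910, and HSC70-3 shared 15.8% with AT3G09430, which overlaps it. The small heat shock proteins other than HSP17.4 shared no 49-base word with any other gene.

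**Figure D1:**
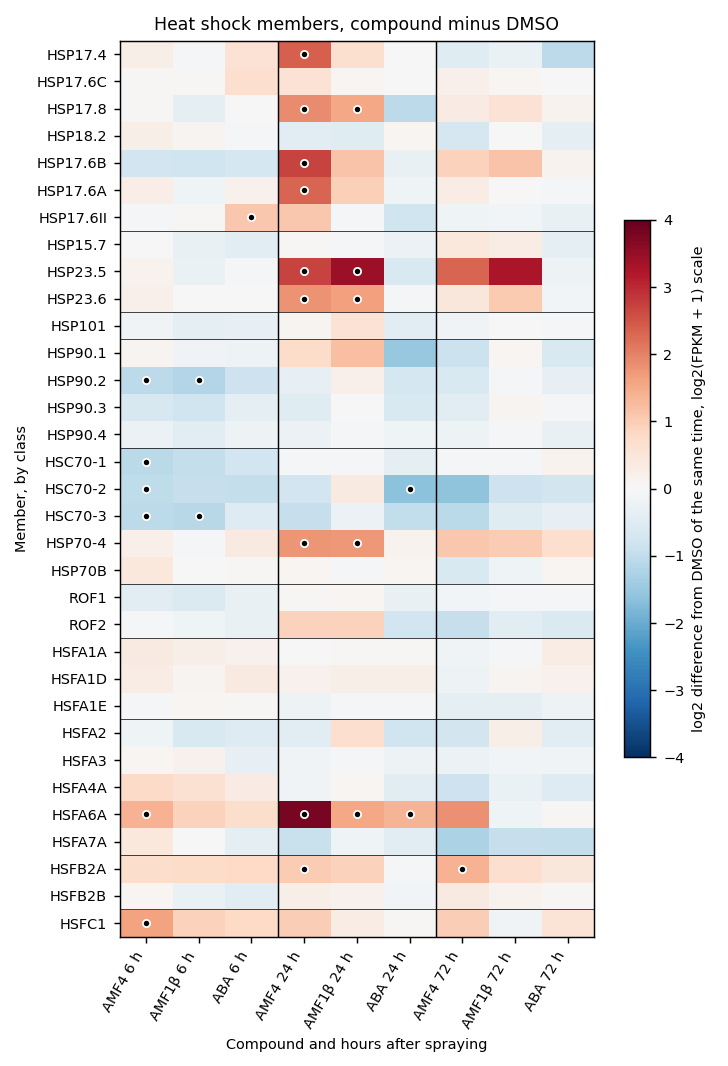
Log2 difference between each compound and DMSO of the same time (colour, on the log2(FPKM + 1) scale) for the 33 members, with columns by time and compound and rows by class. Black dots mark calls, which at 24 h number 9 for AMF4, 5 for AMF1β and 2 for ABA.

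Whether the compounds changed these genes was asked first against DMSO of the same time. Differences are on the log2(FPKM + 1) scale, which understates the change of low genes, and come from limma fitted across 18521 genes. A gene was called at a Benjamini-Hochberg adjusted p under 0.05 and a log2 difference beyond 1 in either direction. More members were called with AMF4 at 24 h than in the other comparisons with DMSO, a difference between counts that was not tested. There 9 of 33 members were called higher, against 2.12% of all genes tested, and 0 lower. With AMF1β at 24 h, 5 were called higher, against 1.05% of all genes, and 0 lower. With ABA at 24 h, 1 was called higher, against 0.232% of all genes, and 1 lower, against 0.491%. The median log2 difference of the 33 members at 24 h was 0.10 with AMF4 beside -0.01 for all genes, 0.20 with AMF1β beside -0.01, and -0.22 with ABA beside -0.02. The difference was above 0 for 20 of 33 members with AMF4, 23 with AMF1β and 8 with ABA. An unadjusted limma p under 0.05 was reached by 15, 12 and 10 members, beside 4163, 4084 and 2582 of all 18521 genes. The AMF4 count was 5 without either AMF4 library, the AMF1β count was 3 without AMF1β replicate 1 and 8 without AMF1β replicate 3, and the ABA count of 2 was 0 without ABA replicate 3 and 1 without ABA replicate 2 or any DMSO replicate. The comparisons with DMSO share its libraries.

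**Figure D2:**
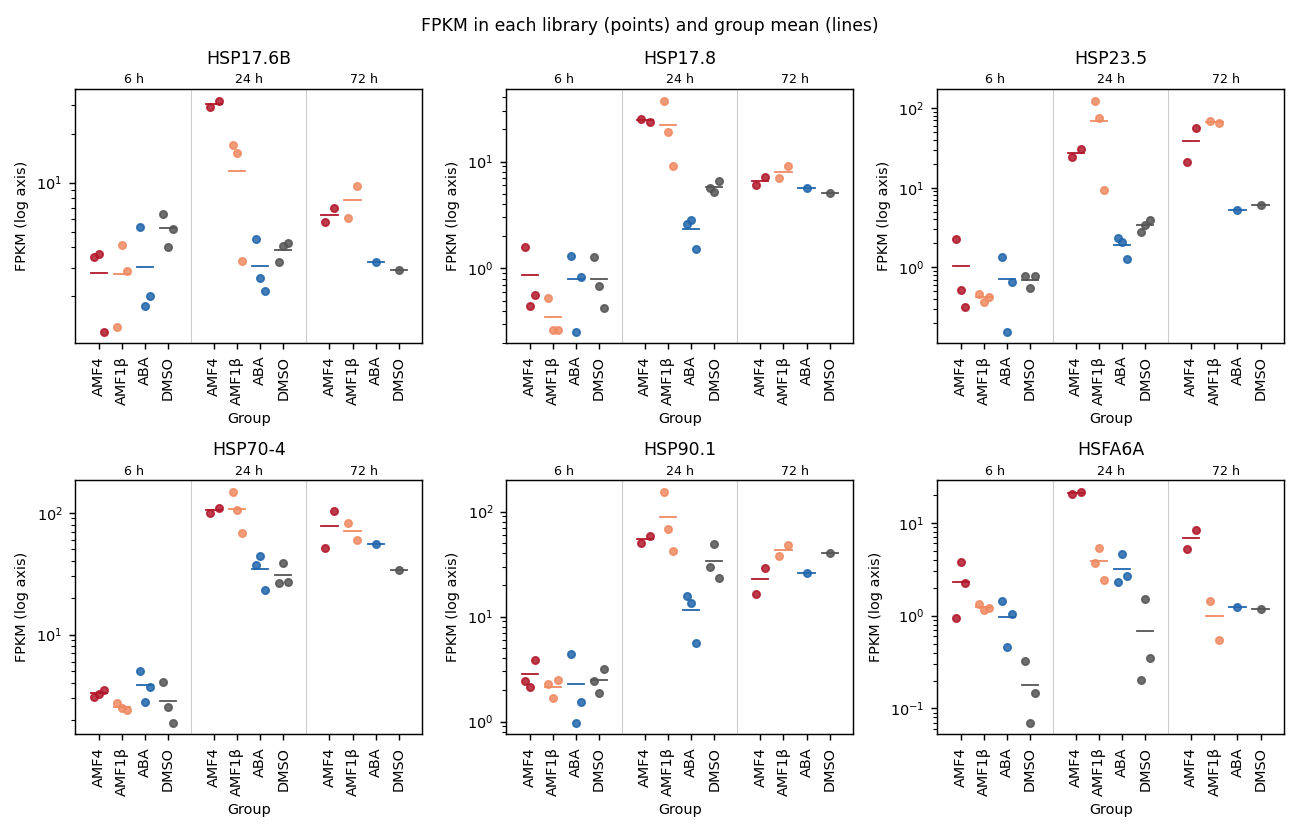
FPKM in every library (points, log axis) and group mean (lines) for 6 members, by time and treatment. At 24 h the AMF4 points of HSP17.6B (29.1 and 32.0 FPKM) and HSFA6A (20.5 and 21.6 FPKM) lie above all points of the other groups.

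Among the cytosolic small heat shock proteins, 4 of 7 were called higher with AMF4 at 24 h, 1 of 7 with AMF1β and 0 of 7 with ABA. HSP17.6B (AT2G29500) measured 29.1 and 32.0 FPKM in AMF4 leaves, 17, 15.2 and 3.29 FPKM in AMF1β leaves and 4.48, 2.59 and 2.16 FPKM in ABA leaves, against 3.27, 4.08 and 4.26 FPKM in DMSO leaves. Both AMF4 libraries were above all others, and the third AMF1β library lay within the DMSO range. The difference was 2.70 ± 0.49 with AMF4 (SE, adjusted p = 0.00133) and 1.15 ± 0.43 with AMF1β (SE, adjusted p = 0.125).

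HSP17.8 (AT1G07400) measured 25.2 and 23.4 FPKM in AMF4 leaves and 37.3, 19.1 and 9.08 FPKM in AMF1β leaves, above the 5.71, 5.22 and 6.55 FPKM of DMSO leaves. ABA leaves, with 2.60, 2.86 and 1.53 FPKM, lay below DMSO. The difference from DMSO was 1.90 ± 0.37 with AMF4 (SE, adjusted p = 0.00278), 1.54 ± 0.33 with AMF1β (SE, adjusted p = 0.0117) and -1.05 ± 0.33 with ABA (SE, adjusted p = 0.139). The AMF1β call was lost without the first AMF1β library (adjusted p = 0.0761).

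HSP17.4 (AT3G46230) measured 5.45 and 7.28 FPKM in AMF4 leaves, 1.86, 0.760 and 1.02 FPKM in AMF1β leaves and 0.344, 0.718 and 0.216 FPKM in ABA leaves, against 0.231, 0.410 and 0.523 FPKM in DMSO leaves at 24 h. Its AMF4 difference was 2.40 ± 0.40 (SE, adjusted p = 0.000779). HSP17.6A (AT5G12030), a class II protein, measured 9.45 and 9.75 FPKM in AMF4 leaves, 5.58, 4.42 and 0.914 FPKM in AMF1β leaves and 1.59, 1.09 and 0.268 FPKM in ABA leaves, against 1.21, 0.470 and 1.97 FPKM in DMSO leaves. Its AMF4 difference was 2.32 ± 0.49 (SE, adjusted p = 0.00461), and the call was lost without either AMF4 library (adjusted p = 0.052 and 0.06). HSP17.6II (AT5G12020), the other class II protein, measured 9.74 and 8.44 FPKM in AMF4 leaves, 5.91, 5.37 and 1.27 FPKM in AMF1β leaves and 1.96, 1.95 and 1.31 FPKM in ABA leaves, against 3.53, 3.41 and 4.34 FPKM in DMSO leaves, and was not called against DMSO (AMF4 difference 1.09 ± 0.40, SE, adjusted p = 0.0934). For all 3 of these genes both AMF4 libraries lay above every other library of 24 h. HSP18.2 (0.826 to 2.98 FPKM at 24 h) and HSP17.6C (at most 1.00 FPKM at 24 h) were not called.

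The mitochondrial small heat shock proteins HSP23.5 and HSP23.6 were called higher with AMF4 and AMF1β at 24 h. HSP23.5 (AT5G51440) measured 24.2 and 31.0 FPKM in AMF4 leaves, 125, 74.4 and 9.43 FPKM in AMF1β leaves and 2.36, 2.07 and 1.28 FPKM in ABA leaves, against 2.81, 3.36 and 3.95 FPKM in DMSO leaves. The AMF1β libraries spread over more than the whole AMF4 range, yet all 5 AMF libraries exceeded every ABA and DMSO library. The difference was 2.71 ± 0.64 with AMF4 (SE, adjusted p = 0.01) and 3.41 ± 0.57 with AMF1β (SE, adjusted p = 0.00222). HSP23.6 (AT4G25200) measured 2.1 and 3.06 FPKM in AMF4 leaves and 6.06, 2.82 and 0.218 FPKM in AMF1β leaves. It was listed at 0 in all 3 ABA libraries and in 2 of the 3 DMSO libraries of 24 h, the third having 0.0828 FPKM. HSP23.6 passed the filter only through AMF4 and AMF1β libraries, the groups where it is high, so its higher calls are no separate support. The counts of higher calls at 24 h with AMF4 and AMF1β, against DMSO and against ABA, include it. The difference was 1.79 ± 0.42 with AMF4 (SE, adjusted p = 0.0106) and 1.64 ± 0.38 with AMF1β (SE, adjusted p = 0.0165). The AMF4 calls of HSP23.5 and HSP23.6 were lost without the first AMF4 library (adjusted p = 0.0675 and 0.0565) and without the second (0.117 and 0.14), and the AMF1β call of HSP23.6 without the first AMF1β library (0.106). The peroxisomal HSP15.7 stayed between 1.89 and 3.88 FPKM at 24 h and was not called.

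Of the HSP70 genes, only the inducible HSP70-4 (AT3G12580) was called higher with a compound at 24 h. It measured 100 and 109 FPKM in AMF4 leaves, 149, 105 and 68.2 FPKM in AMF1β leaves and 37.2, 43.8 and 23.2 FPKM in ABA leaves, against 26.4, 38.8 and 26.9 FPKM in DMSO leaves. All 5 AMF libraries were above every ABA and DMSO library. The difference was 1.75 ± 0.32 with AMF4 (SE, adjusted p = 0.00154), 1.72 ± 0.29 with AMF1β (SE, adjusted p = 0.00222) and 0.15 ± 0.29 with ABA (SE, adjusted p = 0.887). HSC70-2 (AT5G02490) was lower with ABA, at 19.7, 19.4 and 8.15 FPKM, against 42.4, 52.4 and 48.7 FPKM in DMSO leaves. Its ABA difference was -1.63 ± 0.34 (SE, adjusted p = 0.02), lost without the third ABA library (adjusted p = 0.142) or the second DMSO library (0.0924). HSC70-2 measured 28.6 and 26.4 FPKM in AMF4 leaves and 114, 55.7 and 36.2 FPKM in AMF1β leaves, and was not called with either. In AMF4 leaves of 24 h HSC70-3, at 407 and 339 FPKM, lay below DMSO leaves, at 629, 831 and 682 FPKM. HSP90.3 also lay below, at 228 and 206 FPKM against 304, 296 and 309 FPKM. HSC70-1, at 1275 and 1180 FPKM with AMF4, lay within the DMSO range of 1177 to 1487 FPKM. None of these AMF4 differences was called. HSP90.1 (AT5G52640), the inducible HSP90, measured 50.1 and 58.9 FPKM in AMF4 leaves, 155, 67.7 and 42.1 FPKM in AMF1β leaves and 15.71, 13.6 and 5.58 FPKM in ABA leaves, against 29.5, 49.3 and 23.1 FPKM in DMSO leaves. The AMF libraries lay mostly above DMSO and the ABA libraries all below it, and no HSP90.1 difference from DMSO was called. HSP101 (AT1G74310), with 6.70 and 8.36 FPKM in AMF4 leaves, 20.5, 10.0 and 6.14 FPKM in AMF1β leaves and 4.92, 5.62 and 3.93 FPKM in ABA leaves, against 6.33, 8.66 and 6.05 FPKM in DMSO leaves, was not called against DMSO.

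Among the factors, HSFA6A (AT5G43840), a class A factor induced by ABA and salt, was called higher with all 3 compounds at 24 h. It measured 20.5 and 21.6 FPKM in AMF4 leaves, 3.71, 5.4 and 2.43 FPKM in AMF1β leaves and 2.29, 4.68 and 2.69 FPKM in ABA leaves, against 0.202, 1.51 and 0.351 FPKM in DMSO leaves. The AMF4 libraries exceeded the AMF1β and ABA libraries, and these in turn exceeded DMSO. The difference was 3.79 ± 0.36 with AMF4 (SE, adjusted p = 3.54e-06), 1.56 ± 0.32 with AMF1β (SE, adjusted p = 0.00879) and 1.36 ± 0.32 with ABA (SE, adjusted p = 0.0387). The ABA call was lost without DMSO replicate 1 or 3 (adjusted p = 0.148 and 0.103) or ABA replicate 2 or 3 (0.215 and 0.107). HSFB2A (AT5G62020), a class B factor, measured 19.4 and 17.9 FPKM in AMF4 leaves, 21.6, 17.7 and 13.6 FPKM in AMF1β leaves and 8.49, 8.28 and 8.21 FPKM in ABA leaves, against 7.76, 9.41 and 8.87 FPKM in DMSO leaves. Its AMF4 difference was 1.02 ± 0.23 (SE, adjusted p = 0.00681), just past the limit of 1, and its AMF1β difference of 0.92 ± 0.20 (SE, adjusted p = 0.013) fell just short of it. The HSFB2A call with AMF4 was lost without the first DMSO library (log2 difference 0.95) and without the first or second AMF4 library (adjusted p = 0.0865 and 0.0592). HSFA2 (AT2G26150) measured 9.05 and 12 FPKM in AMF4 leaves, 51.5, 19.6 and 13.5 FPKM in AMF1β leaves and 8.63, 8.50 and 6.93 FPKM in ABA leaves, against 15.0, 18.4 and 11.4 FPKM in DMSO leaves, and was not called against DMSO. HSFC1 measured 53.2 and 49.7 FPKM in AMF4 leaves, 30.6, 31.6 and 32.4 FPKM in AMF1β leaves and 30.3, 27.8 and 21.8 FPKM in ABA leaves, against 26.6, 32.9 and 19.3 FPKM in DMSO leaves. Both AMF4 libraries lay above all others, with a difference of 0.97 ± 0.27 (SE, adjusted p = 0.0287) that was under the limit of 1. The 3 HSFA1 factors were not called with any compound at any time, with levels between 0.849 and 6.50 FPKM over the series.

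At 6 h HSP17.6II, with ABA, was the only small heat shock protein called, and the other calls fell on HSP70, HSP90 and factor genes. With AMF4, 4 members were called lower, against 4.35% of all genes, and 2 higher, against 4.21%. With AMF1β, 2 were called lower, against 3.28% of all genes, and 0 higher. With ABA, 1 was called higher, against 3.71% of all genes, and 0 lower. Those lower were constitutive chaperones. HSP90.2 (AT5G56030) measured 41.1, 46.0 and 49.3 FPKM in AMF4 leaves, 42.6, 39.8 and 41.9 FPKM in AMF1β leaves and 59.8, 49.3 and 47.7 FPKM in ABA leaves, against 102, 109 and 74.1 FPKM in DMSO leaves. Its difference was -1.04 ± 0.21 with AMF4 (SE, adjusted p = 0.00126) and -1.16 ± 0.21 with AMF1β (SE, adjusted p = 0.000701). HSC70-3 (AT3G09440) measured 58.8, 60.6 and 74.7 FPKM in AMF4 leaves, 63.5, 69.9 and 53.2 FPKM in AMF1β leaves and 129, 72.1 and 87.2 FPKM in ABA leaves, against 150, 159 and 100 FPKM in DMSO leaves. Its difference was -1.04 ± 0.27 with AMF4 (SE, adjusted p = 0.00668) and -1.10 ± 0.27 with AMF1β (SE, adjusted p = 0.00652). HSC70-1 (AT5G02500) measured 232, 201 and 285 FPKM in AMF4 leaves, 238, 241 and 317 FPKM in AMF1β leaves and 339, 257 and 291 FPKM in ABA leaves, against 587, 555 and 397 FPKM in DMSO leaves. All 9 treated libraries lay below every DMSO library. Its difference was -1.09 ± 0.19 with AMF4 (SE, adjusted p = 0.000311), and under the limit of 1 with AMF1β (-0.94 ± 0.19, SE, adjusted p = 0.00168) and ABA (-0.78 ± 0.19, SE, adjusted p = 0.00599). HSC70-2, at 3.27, 2.27 and 3.76 FPKM in AMF4 leaves and 4.65, 8.35 and 9.31 FPKM in DMSO leaves, differed by -1.01 ± 0.34 (SE, adjusted p = 0.0302). This HSC70-2 call was lost without DMSO replicate 2 or 3 (adjusted p = 0.0931 and 0.109) or AMF4 replicate 2 (0.101). The other calls here stayed under 0.05 without any single library, but several differences came just inside the limit of 1, to -0.93 at the smallest for HSP90.2 with AMF4 (without DMSO replicate 2) and -0.92 for HSC70-3 with AMF4 (without the same library), to -0.97 for HSC70-1 (without AMF4 replicate 2) and to -0.98 for HSC70-3 with AMF1β (without DMSO replicate 2).

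**Figure D3:**
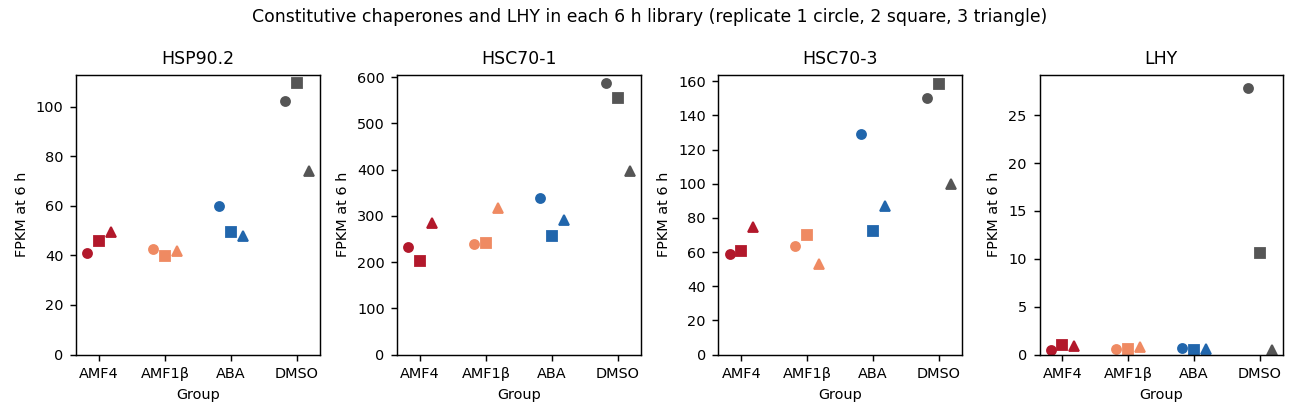
FPKM at 6 h in every library for 3 constitutive chaperones and the clock gene LHY, by treatment, with marker shape for the replicate. DMSO replicates 1 and 2 stand highest in all 4 panels, with 27.9 and 10.6 FPKM of LHY, and DMSO replicate 3 has 0.436 FPKM of LHY.

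The DMSO libraries of 6 h were not alike in a gene of the circadian clock. LHY, which peaks around dawn, measured 27.9 and 10.6 FPKM in the first and second DMSO libraries and 0.436 FPKM in the third, while the 9 treated libraries held 0.433 to 0.983 FPKM. The chaperones above were also highest in DMSO replicates 1 and 2, except HSC70-2, whose lowest DMSO value was in replicate 1. Without both of those libraries (this alternative was chosen after seeing the data) no member was called lower: HSP90.2 differed by -0.70 with AMF4 (adjusted p = 0.129) and by -0.82 with AMF1β (adjusted p = 0.0836), HSC70-3 by -0.63 with AMF4 (0.278) and -0.69 with AMF1β (0.265), HSC70-1 by -0.74 (0.0663) and HSC70-2 by -1.35 (0.0702). That control is a single library, assumed to vary like the other groups. Without DMSO replicate 1 alone the AMF4 count was 3 and the AMF1β count 4, and without DMSO replicate 2 alone they were 3 and 1. At 24 h the libraries also differed in a clock gene. ELF4 measured 0.303 and 0 FPKM in AMF4 leaves, against 4.52, 0.208 and 6.62 FPKM in DMSO leaves. ELF4 measured 2.09, 5.44 and 0.251 FPKM in AMF1β leaves and 2.24, 1.20 and 3.30 FPKM in ABA leaves. LHY overlapped, with 163 and 165 FPKM in AMF4 leaves against 132, 240 and 139 FPKM in DMSO leaves. The part of the clock differences in the results at 6 h and 24 h was not tested.

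The 2 members called higher with AMF4 at 6 h were factors. HSFC1 (AT3G24520), the only class C factor, measured 24.5, 19.0 and 21.8 FPKM in AMF4 leaves, 14.9, 15.5 and 10.3 FPKM in AMF1β leaves and 12.6, 9.97 and 14 FPKM in ABA leaves, against 10.9, 6.45 and 3.72 FPKM in DMSO leaves. Its AMF4 difference was 1.60 ± 0.24 (SE, adjusted p = 8.6e-05) and was the 1 call of these 6 that held with the third DMSO library alone as control (2.26, adjusted p = 8.12e-05). Its AMF1β and ABA differences, 0.94 ± 0.24 and 0.80 ± 0.24 (SE), were under the limit of 1 (adjusted p = 0.0102 and 0.0239). HSFA6A measured 0.948, 3.78 and 2.24 FPKM in AMF4 leaves, 1.33, 1.14 and 1.21 FPKM in AMF1β leaves and 1.43, 0.455 and 1.04 FPKM in ABA leaves, all above the 0.324, 0.0699 and 0.148 FPKM of DMSO leaves. It differed by 1.41 ± 0.32 with AMF4 (SE, adjusted p = 0.00291), by 0.92 ± 0.32 with AMF1β (SE, adjusted p = 0.0481) and by 0.71 ± 0.32 with ABA (SE, adjusted p = 0.126). HSFA6B (AT3G22830), an ABA-responsive class A factor, was under the filter. It measured 1.85, 0.599 and 0.392 FPKM in AMF4 leaves, 0.270, 0.346 and 0.166 FPKM in AMF1β leaves and 0.763, 0.216 and 0.752 FPKM in ABA leaves at 6 h, and was listed at 0 in 2 DMSO libraries and at 0.0366 FPKM in the third. Fitted without the filter, over 29370 genes, HSFA6B differed by 0.87 ± 0.17 with AMF4 (SE, adjusted p = 0.00179) and 0.62 ± 0.17 with ABA (SE, adjusted p = 0.0248), both under the limit of 1. HSP17.6II was the member called with ABA at 6 h, with 4.28, 0.695 and 1.85 FPKM, against 0.379, 0.405 and 0.412 FPKM in DMSO leaves, and differed by 1.07 ± 0.35 (SE, adjusted p = 0.0368). The first ABA library of 6 h was the high one, also for HSP17.4 (3.28 FPKM) and HSP17.6C (3.15 FPKM), and without it HSP17.6II differed by 0.65 (adjusted p = 0.25). With the third DMSO library alone as control, HSP17.6II differed by 1.06 (adjusted p = 0.237) and HSFA6A with AMF4 by 1.44 (0.0549), neither called. The HSP17.6II call was also lost without the third ABA library (adjusted p = 0.0825) and without any one DMSO library of 6 h (0.0738 to 0.0847).

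Some members were called in no comparison with DMSO or between compounds, and are listed with their levels. Besides the HSFA1 factors and HSFA3 these were the constitutive HSP90.3 (53.7 to 399 FPKM over the 29 libraries) and HSP90.4 (6.72 to 14 FPKM), HSP70B (1.09 to 4.74 FPKM), ROF1 (12.6 to 57.4 FPKM), HSP15.7 (1.59 to 5.45 FPKM), HSP18.2 (0.301 to 3.3 FPKM), HSP17.6C (at most 3.15 FPKM), HSFA4A (9.03 to 27.5 FPKM), HSFB2B (1.8 to 12.6 FPKM) and HSFA7A (at most 3.19 FPKM). HSFA7A and HSP17.6C were among these, and both have a promoter that holds a 3-unit element.

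At 72 h ABA and DMSO had 1 library each, which the fit assumes to vary like the other groups. AMF4 had 1 member called higher, against 1.12% of all genes, and 0 lower. AMF1β had 0 members called, against 0.0108% of all genes in either direction, and ABA had 0, against 0% of all genes. The called member was HSFB2A, at 15.8 and 18 FPKM in AMF4 leaves, 12.1 and 7.83 FPKM in AMF1β leaves and 8.40 FPKM in ABA leaves, against 5.82 FPKM in DMSO leaves. It differed by 1.39 ± 0.31 with AMF4 (SE, adjusted p = 0.0253), and the call was lost without either AMF4 library (0.0976 and 0.0721). HSP23.5 had 21.3 and 56.9 FPKM in AMF4 leaves, 69.4 and 64.5 FPKM in AMF1β leaves and 5.20 FPKM in the ABA library, against 6.13 FPKM in the DMSO library. Its difference was 2.33 ± 0.85 with AMF4 (SE, adjusted p = 0.197) and 3.25 ± 0.85 with AMF1β (SE, adjusted p = 0.366), neither called. HSFA6A had 5.29 and 8.30 FPKM in AMF4 leaves, 1.46 and 0.541 FPKM in AMF1β leaves and 1.25 FPKM in the ABA library, against 1.17 FPKM in the DMSO library (AMF4 adjusted p = 0.0559). HSP70-4 had 51.6 and 103 FPKM in AMF4 leaves, 81.7 and 59.3 FPKM in AMF1β leaves and 55.4 FPKM in the ABA library, against 34.1 FPKM in the DMSO library, and was not called.

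**Figure D4:**
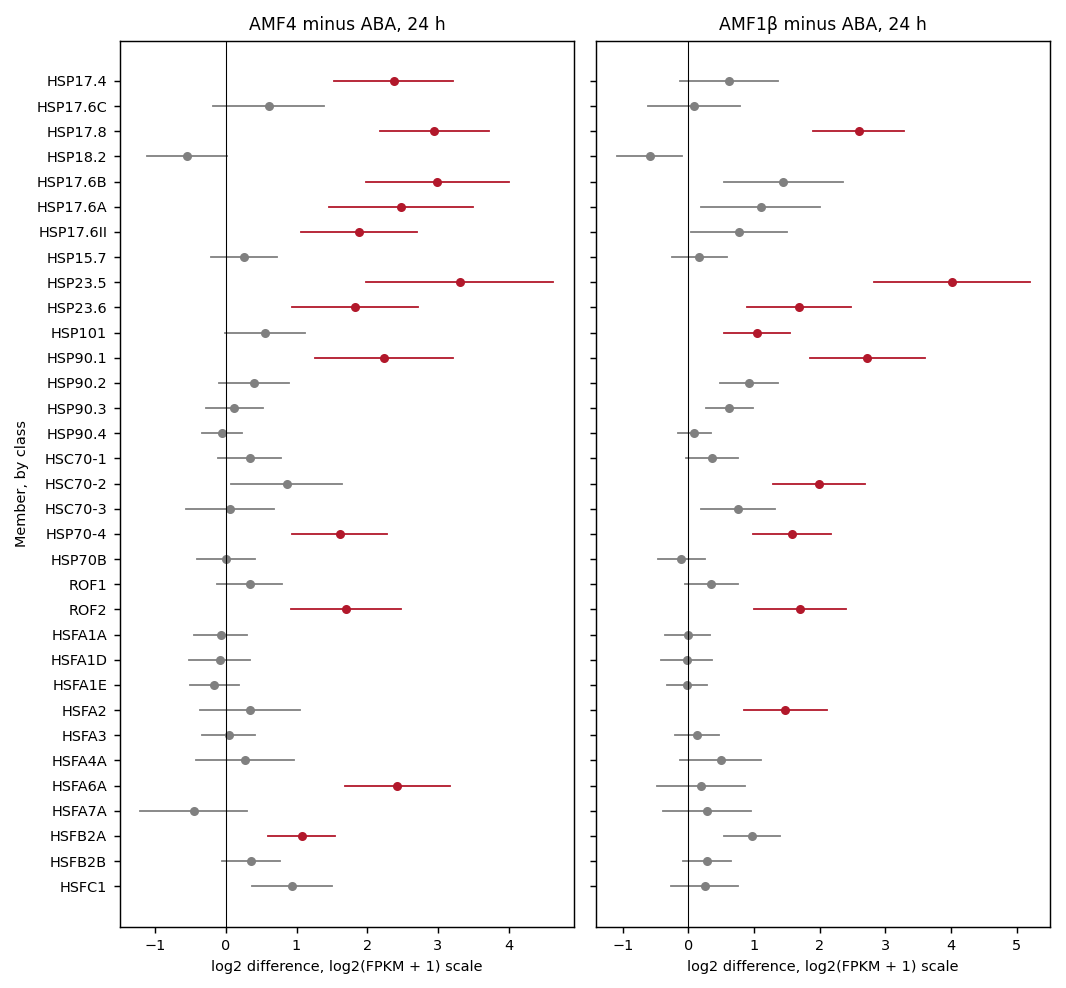
Log2 difference from ABA at 24 h with its 95% interval (lines) for the 33 members, AMF4 left and AMF1β right. Red marks the calls, 12 for AMF4 and 9 for AMF1β, all higher.

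The compounds were then compared with each other at the same time and dose. At 24 h, 12 members were higher with AMF4 than with ABA, against 1.38% of all genes, and 9 were higher with AMF1β than with ABA, against 1.3%, with 0 lower in either. The median log2 difference of the members was 0.40 for AMF4 and 0.62 for AMF1β, beside 0.01 and 0 for all genes. The count moved with the libraries: for AMF4 it was 4 without the first AMF4 library and 3 without the second, and for AMF1β 4 without the first AMF1β library, 14 without the third and 4 without the third ABA library. HSP17.8 differed from ABA by 2.95 ± 0.37 with AMF4 (SE, adjusted p = 0.000237) and by 2.59 ± 0.33 with AMF1β (SE, adjusted p = 0.000494). HSP17.8, HSP17.6B (2.99 ± 0.49, SE, adjusted p = 0.0018) and HSFA6A (2.43 ± 0.36, SE, adjusted p = 0.000845) kept their AMF4 call under every alternative run. The same held with AMF1β for HSP17.8, HSP23.5 (4.01 ± 0.57, SE, adjusted p = 0.00103), HSP90.1 (2.72 ± 0.42, SE, adjusted p = 0.00179) and HSC70-2 (1.99 ± 0.34, SE, adjusted p = 0.00338).

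ROF2 (AT5G48570), a heat-induced immunophilin, measured 31.1 and 32.3 FPKM in AMF4 leaves and 62.6, 30.4 and 16.4 FPKM in AMF1β leaves, against 13.3, 9.28 and 5.86 FPKM in ABA leaves. It differed from ABA by 1.70 ± 0.38 with AMF4 (SE, adjusted p = 0.0132) and by 1.70 ± 0.34 with AMF1β (SE, adjusted p = 0.00878). Its AMF4 call was lost without the first or second AMF4 library (0.132 each) or the third ABA library (0.0776), and its AMF1β call without the first AMF1β library (0.0753) or the third ABA library (0.0745). The other AMF4 calls, HSP17.4 (2.37), HSP17.6A (2.48), HSP17.6II (1.89), HSP23.5 (3.31), HSP23.6 (1.83), HSP90.1 (2.24), HSP70-4 (1.61) and HSFB2A (1.07), given as log2 differences from ABA, were each lost without the second AMF4 library (adjusted p 0.0544 to 0.217), and all of them but HSP17.4 also without the first (0.0647 to 0.148). Without the third ABA library, HSP23.6 (0.0611) and HSP90.1 (0.0608) lost the AMF4 call too. The other AMF1β calls, HSP23.6 (1.68), HSP101 (1.04), HSP70-4 (1.58) and HSFA2 (1.48), were lost without the first AMF1β library (0.0593 to 0.154) and without the third ABA library (0.0527 to 0.138), and HSP23.6 also without the second ABA library (0.0633). In the ABA leaves themselves, 25 of 33 members had a log2 difference from DMSO below 0 at 24 h. Called lower was 1, against 0.491% of all genes. An unadjusted limma p under 0.05 in either direction was reached by 10 members, beside 2582 of all 18521 genes.

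No member was called between AMF4 and AMF1β. At 24 h and 6 h no gene of all those tested was called either, so a missing call does not show equal levels. The AMF4 minus AMF1β difference was called for 0 members at 24 h, against 0% of all genes, at 6 h, against 0%, and at 72 h, against 0.054%. At an unadjusted limma p under 0.05 there were 11 members at 24 h, 2 at 6 h and 7 at 72 h. Of all 18521 genes there were 1175, 1357 and 2188. The intervals hold differences past 1 for several members, and those of HSFA6A at 24 h and 72 h lie wholly past 1. HSFA6A differed between AMF4 and AMF1β by 2.23 at 24 h (95% interval 1.49 to 2.97, adjusted p = 0.0672) and by 1.97 at 72 h (1.16 to 2.79, adjusted p = 0.0516). HSP17.4 differed by 1.75 (0.91 to 2.59, adjusted p = 0.145), HSP17.6B by 1.55 (0.54 to 2.56, adjusted p = 0.483) and HSFA2 by -1.13 (-1.84 to -0.43, adjusted p = 0.434) at 24 h. For HSP17.6B the third AMF1β library, at 3.29 FPKM, lay apart from the other AMF1β libraries. Without AMF1β replicate 2 at 24 h, or without AMF1β replicate 1 at 72 h, the AMF4 minus AMF1β count was 1 in place of 0.

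At 6 h and 72 h no member was called between the AMF compounds and ABA. AMF4 against ABA had 0 members called at 6 h, against 0.508% of all genes, and 0 at 72 h, against 0.626%. An unadjusted limma p under 0.05 was reached at 6 h by 7 members, beside 3780 of all 18521 genes. Without ABA replicate 2 the AMF4 count at 6 h was 1. AMF1β against ABA had 0 at 6 h, against 0.367% of all genes, and 0 at 72 h, against 0%. An unadjusted limma p under 0.05 was reached at 6 h by 4 members, beside 2075 of all 18521 genes. HSFA3 (AT5G03720), a factor downstream of DREB2A, measured 0.702, 1.04 and 1.51 FPKM in AMF4 leaves and 1.31, 0.951 and 1.36 FPKM in AMF1β leaves at 6 h, against 0.483, 0.588 and 0.513 FPKM in ABA leaves. Neither AMF group overlapped ABA, and the differences from ABA were 0.43 with AMF4 (95% interval 0.10 to 0.76, adjusted p = 0.141) and 0.53 with AMF1β (0.19 to 0.86, adjusted p = 0.155), under the limit. DMSO leaves of 6 h, with 0.566, 1.15 and 1.17 FPKM, overlapped the AMF4, AMF1β and ABA leaves.

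**Figure D5:**
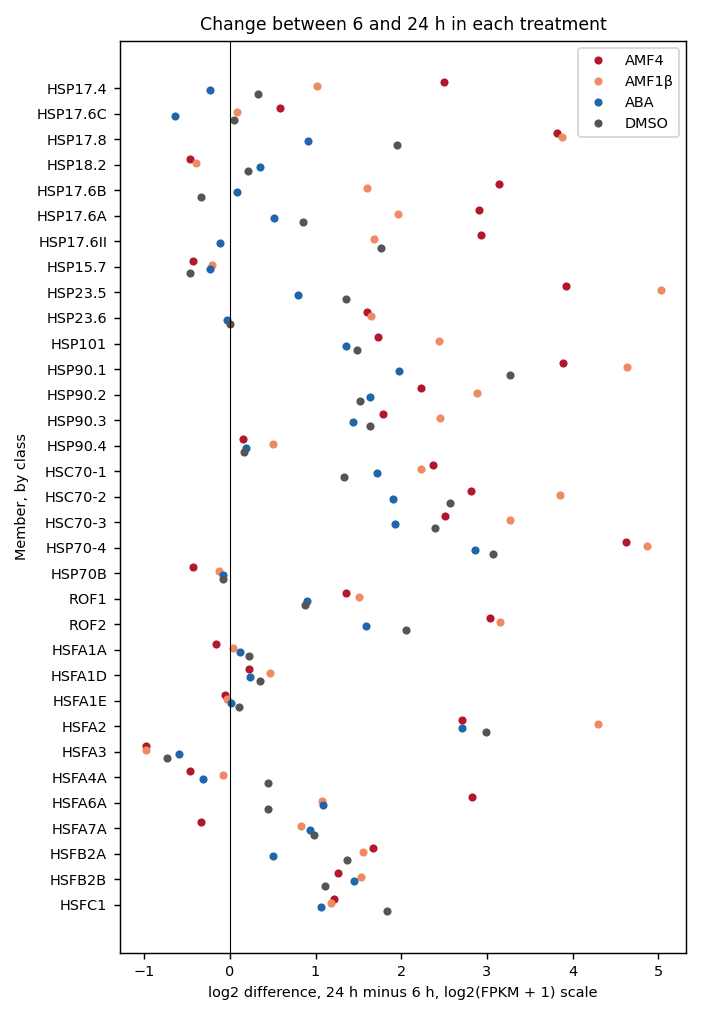
Log2 difference between 24 h and 6 h of the same treatment for the 33 members, by class, with a point for each treatment. Members called higher at 24 h number 22 with AMF4, 22 with AMF1β, 13 with ABA and 15 with DMSO.

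Members also differed between sampling times, in DMSO leaves as well as with each compound. In DMSO leaves 15 of 33 members were higher at 24 h than at 6 h, against 7.9% of all genes, and 0 were lower. In AMF4 leaves 22 were higher, against 6.28% of all genes, in AMF1β leaves 22, against 5.63%, and in ABA leaves 13, against 5.94%, with 0 lower in each. The median log2 difference of the members was 1.73 with AMF4, 1.55 with AMF1β, 0.80 with ABA and 0.99 with DMSO. In DMSO leaves HSC70-3 averaged 714 ± 105 FPKM at 24 h and 136 ± 31.6 FPKM at 6 h (SD, n = 3 each), HSC70-1 1283 ± 177 and 513 ± 102 FPKM, and HSP90.2 270 ± 7.99 and 95.3 ± 18.7 FPKM. HSFA2 averaged 14.9 ± 3.52 FPKM at 24 h and 0.974 ± 0.234 FPKM at 6 h (SD, n = 3 each) in DMSO leaves, a difference of 2.99 ± 0.30 (SE, limma adjusted p = 1.67e-07). HSP70-4 averaged 30.7 ± 7.02 FPKM at 24 h and 2.83 ± 1.13 FPKM at 6 h (SD, n = 3 each), a difference of 3.07 ± 0.29 (SE, limma adjusted p = 5.89e-08). HSFA3 ran the other way, at 0.162, 0.0615 and 0.272 FPKM at 24 h and 0.566, 1.15 and 1.17 FPKM at 6 h in DMSO leaves, with a difference of -0.74 ± 0.16 (SE, adjusted p = 0.00109) that is under the limit of 1. Of the 9 clock genes, 3 were called higher (LHY, CCA1, PRR9) and 5 lower (PRR5, TOC1, GI, ELF4, LUX) at 24 h than at 6 h in DMSO leaves, so time since spraying and time of day cannot be told apart.

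Whether a compound's effect differed between 24 h and 6 h was tested as an interaction with the DMSO change. A time course that DMSO and treated leaves share drops out, but a difference in time of day between them does not. At 6 h LHY measured 27.9, 10.6 and 0.436 FPKM in DMSO leaves and 0.433 to 0.983 FPKM in treated leaves. The interactions were not refitted without both DMSO libraries high in LHY. AMF4 had 6 members higher, against 3.16% of all genes, AMF1β had 4 higher, against 0.842%, and ABA had 1 lower, against 2.99%. HSP17.6B had the largest AMF4 interaction, 3.48 ± 0.65 (SE, adjusted p = 0.00329), and was the member that kept it under every alternative run. HSFA6A followed with 2.38 ± 0.48 (SE, adjusted p = 0.00518). The AMF4 count was 2 without either AMF4 library of 24 h and 3 without DMSO replicate 1 or AMF4 replicate 2 of 6 h. The AMF1β count was 8 without AMF1β replicate 3 of 24 h, 2 without DMSO replicate 1 of 6 h, and 0 without DMSO replicate 2 of 6 h, DMSO replicate 1 or 2 of 24 h, AMF1β replicate 1 or 2 of 24 h or any AMF1β library of 6 h. The ABA count was 2 without DMSO replicate 1 of 6 h and 0 without ABA replicate 1 or 3 of 6 h or ABA replicate 3 of 24 h. The other values stand in the closing section.

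Genes outside the set, listed by their place in the heat response, were called in part. None of their calls was checked without single libraries. Of all genes, 2.12% were called higher with AMF4 and 1.05% with AMF1β at 24 h, and 0.491% lower with ABA. At 6 h 4.21% were called higher and 4.35% lower with AMF4, and 3.28% lower with AMF1β. Of 18521 genes, 498 were higher with AMF1β and 601 lower with ABA at 6 h. Single calls in these short lists at 6 h are thus no result about the lists. Of 13 tested heat-induced genes, 2 were higher with AMF4 at 24 h, HSA32, needed for lasting thermotolerance (1.46 ± 0.23, SE, adjusted p = 0.000508), and HOP3, a co-chaperone that joins HSP70 and HSP90 (1.91 ± 0.34, SE, adjusted p = 0.00127). With AMF1β at 24 h, 2 were higher, HOP3 (1.44 ± 0.31, SE, adjusted p = 0.0103) and FES1A, an HSP70-binding protein (1.20 ± 0.31, SE, adjusted p = 0.0295). With ABA at 24 h, 0 were called in either direction. At 72 h, where the control was 1 DMSO library, the HSA32 difference with AMF4 was 1.24 ± 0.31 (SE, adjusted p = 0.0469), and it was not refitted without single libraries. Of 22 co-chaperones and organellar chaperones, the chloroplast HSP90.5 was higher with AMF4 at 24 h (1.42 ± 0.20, SE, adjusted p = 0.000145), and the endoplasmic reticulum chaperones BIP1 (-1.08 ± 0.23, SE, adjusted p = 0.0243) and BIP2 (-1.05 ± 0.25, SE, adjusted p = 0.0431) were lower with ABA. At 6 h the chloroplast HSP70 gene CPHSC70-2 measured 51, 57 and 41.5 FPKM in AMF4 leaves, 48.3, 68.8 and 47.8 FPKM in AMF1β leaves and 64.5, 80.5 and 68.1 FPKM in ABA leaves, against 126, 163 and 107 FPKM in DMSO leaves. All treated libraries lay below every DMSO library, and it was called lower with AMF4 (-1.38 ± 0.19, SE, adjusted p = 3e-05) and AMF1β (-1.25 ± 0.19, SE, adjusted p = 0.000125). GOLS1, a galactinol synthase gene, was higher at 6 h with AMF4 (1.52 ± 0.45, SE, adjusted p = 0.0152) and AMF1β (1.28 ± 0.45, SE, adjusted p = 0.0475). Also at 6 h HSP15.4, a small heat shock protein outside the set, was lower with AMF4 (-1.41), AMF1β (-1.31) and ABA (-1.90). The calls of 6 h use the DMSO libraries that differ in LHY, and the part of this in the calls was not tested. The 5 tested HSFs outside the set were not called against DMSO at any time.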

How the data were processed

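Leaf RNA was sequenced on a HiSeq2500, reads were mapped to TAIR10 with TopHat, and gene values were computed with Cufflinks (versions not given in the sources used here). Per gene and library, the authors deposited FPKM values with no counts; the study's methods give a nominal read number and none per library, so each library's depth and counting error are unknown, and relative depth (0.451 to 1.92) was estimated from the smallest steps between values. FPKM sums ran from 763464 to 1140081 per library. Values were transformed as log2(FPKM + 1), genes with at least 1 FPKM in at least 2 libraries (18521) were kept, and 12 group means were fitted with limma 3.58.1 in R 4.3.3 (trended prior, Benjamini-Hochberg adjustment). A call needed adjusted p under 0.05 and more than a 2-fold or less than a 0.5-fold change. The fit was tested on simulated data. The members and lists were chosen with earlier results of these data known. Values per library are given for the 12 members with the largest called difference between compounds or from DMSO. They are also given for HSFA6B, HSFA6A, HSFA3, HSFA2, HSP101 and HSP90.1. Those of HSP90.2, HSP90.3, HSC70-1, HSC70-3, HSFC1 and HSFB2A were added after their values were seen. Promoters were read from TAIR10.1 with its RefSeq annotation. Alternatives were another pseudocount, filter, scaling and control, libraries left out and a replicate block.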

Additional observations from a re-analysis of the deposited data

Results flagged for a closer look

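For 11 tests in 9 members the effect of a compound differed between 24 h and 6 h by a test of the difference itself, the limma interaction with the DMSO change, given here as log2 values with the SE. With AMF4 these were HSP17.6B (3.48 ± 0.65, adjusted p = 0.00329), HSFA6A (2.38 ± 0.48, adjusted p = 0.00518), HSP17.4 (2.18 ± 0.54, adjusted p = 0.0169), HSP17.8 (1.86 ± 0.50, adjusted p = 0.0254), HSP70-4 (1.56 ± 0.43, adjusted p = 0.0296) and HSC70-1 (1.03 ± 0.29, adjusted p = 0.0292). With AMF1β these were HSP23.5 (3.67 ± 0.81, adjusted p = 0.0265), HSP17.8 (1.93 ± 0.47, adjusted p = 0.0425), HSP70-4 (1.80 ± 0.41, adjusted p = 0.03) and HSP90.2 (1.37 ± 0.30, adjusted p = 0.0265). With ABA it was HSP17.6II (-1.87 ± 0.50, adjusted p = 0.0243). Of all genes, 3.16% were called higher in this test with AMF4, 0.842% higher with AMF1β and 2.99% lower with ABA. The 1 ABA call among 33 members is near the share of all genes, so it is no result about the set.

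Single libraries decided several of these. For the 4 members with AMF1β, adjusted p lay between 0.0553 and 0.117 without the third AMF1β library of 6 h, the second DMSO library of 24 h and the first AMF1β library of 24 h. HSP17.6II with ABA was lost without the first ABA library of 6 h (0.0834), the third (0.0516) and the third ABA library of 24 h (0.0655). HSP17.4 with AMF4 was lost without either AMF4 library of 24 h (0.0561 and 0.0863), and so were HSP17.8 (0.107 and 0.0777), HSP70-4 (0.096 and 0.11) and HSC70-1 (0.13 and 0.0788). The interactions of HSP90.2 and HSC70-1 rest in part on the higher DMSO values of 6 h, whose libraries differ in LHY (27.9, 10.6 and 0.436 FPKM). Every interaction here uses these DMSO libraries, and the part of that difference was not tested.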

How the results depend on the processing

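Over 928 alternative values of the 58 called member differences, 0 changed sign, and 17 of the 58 kept their call in all alternatives run. Many of these values could not change sign. Another filter, no trend, no fold limit and fits on libraries of the compared times leave the difference itself unchanged. Dropping the fold limit could not end a call either. A pseudocount of 0.1 ended 8 calls, no filter 6, quantile normalization 7 and fits on libraries of the compared times 17; median-of-ratios scaling and no trend ended 0. Counts of members called moved by over 1.5 times as follows. Against DMSO at 6 h, the ABA count of 1 (higher) was 4 with a pseudocount of 0.1 (2 of them lower), 2 with quantile normalization (1 lower), 5 with no fold limit (2 lower), and 0 without the filter or with 6 h libraries alone; the AMF1β count of 2 (both lower) was 6 with the 0.1 pseudocount (4 lower), 1 with quantile normalization (lower), 9 with no fold limit (6 lower) and 1 with DMSO replicate 3 as the only 6 h control, a higher call, so neither lower call was kept; the AMF4 count of 6 (4 lower) was 3 with quantile normalization (1 lower) and 1 with that control (higher). Against DMSO at 24 h, the ABA count of 2 was 1 without the filter or with quantile normalization and 0 with 24 h libraries alone, and the AMF1β count of 5 was 3 with these alone. Against DMSO at 72 h, pooling the DMSO libraries of 24 and 72 h gave 2 for AMF1β (from 0) and 6 for AMF4 (2 lower, from 1), where median-of-ratios scaling gave 2 and 72 h libraries alone 0. AMF4 against ABA at 6 h had 1 with quantile normalization (from 0), and AMF1β against ABA at 24 h 5 with 24 h libraries alone (from 9). The AMF1β interaction count of 4 was 1 without the filter, and the AMF4 count of 6 was 3 with the 0.1 pseudocount. Quantile normalization moved the all-gene median of the AMF4 interaction by 0.103.

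With 1 library left out at a time, counts ran against DMSO from 3 to 6 (AMF4), 1 to 4 (AMF1β) and 0 to 2 (ABA) at 6 h, from 5 to 10 (AMF4), 3 to 8 (AMF1β) and 0 to 3 (ABA) at 24 h, and were 0 to 0 for AMF4 and 0 to 0 for AMF1β at 72 h. Against ABA they ran from 0 to 1 (AMF4) and 0 to 0 (AMF1β) at 6 h, from 3 to 12 (AMF4) and 4 to 14 (AMF1β) at 24 h, and 0 to 0 for both at 72 h. AMF4 against AMF1β gave 0 to 0 at 6 h, 0 to 1 at 24 h and 0 to 1 at 72 h. For 24 h against 6 h they ran from 21 to 23 (AMF4), 20 to 22 (AMF1β), 11 to 15 (ABA) and 15 to 16 (DMSO), and for the interactions from 2 to 8 (AMF4), 0 to 8 (AMF1β) and 0 to 2 (ABA). The causes were not tested. Where a group was left with 1 library, it was assumed to vary like the others.

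Replicate numbers did not pair the libraries: same-numbered libraries correlated at -0.194 to 0.236 at 6 h and at -0.253 to 0.243 at 24 h, and at -0.115 at 72 h. With the replicate number as a block, the AMF4 count at 72 h was 0 in place of 1, the AMF4 counts at 6 and 24 h were 6 and 9 (1 of the 9 lower), and 4 of the 58 member calls were lost: HSFB2A with AMF4 at 24 h (log2 difference 0.97) and at 72 h (adjusted p = 0.0504), HSP23.6 for AMF4 against ABA at 24 h (0.0625) and the AMF4 interaction of HSC70-1 (0.0679). Crossing the numbers of the 72 h AMF1β libraries, chosen after seeing the data, gave 0 members for AMF4 against AMF1β, as without a block. Comparisons of 24 h with 6 h had no block fit, since the numbers lie within a time.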
